A study of Rattus norvegicus with 32 samples.

Results

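Teneurins, latrophilins and FLRT proteins are 3 families of cell-surface proteins that bind one another between neurons. The group examined here consists of the genes with the symbols Tenm1, Tenm2, Tenm3, Tenm4, Adgrl1, Adgrl2, Adgrl3, Flrt1, Flrt2 and Flrt3 in the count files. They were chosen by name, with earlier results of these data known. Of these 10 genes, 9 were found among the 28914 genes counted in each sample, and Tenm1 was not analysed here. The RNA-seq libraries came from adult male Sprague-Dawley rats, in which the SVZ (subventricular zone), the NAc (nucleus accumbens) and 2 parts of the hippocampus, the CA (Ammon's horn) and the DG (dentate gyrus), were sampled. The METH group received methamphetamine at 10 mg/kg by intraperitoneal injection, 4 times at intervals of 2 h, and the Sal group received saline at 1 mL/kg on the same schedule. In both groups, the interval between the last injection and the collection of tissue was 24 h. With 4 replicates per treatment and region there were 32 samples, and a name such as DG Sal 3 gives the region, the treatment and the replicate. The NAc and SVZ were punched out of brain slices and the DG and CA were scooped out of the posterior hemispheres, so each sample holds all cell types of the piece, and fewer cells of a type cannot be told apart from less RNA per cell.

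Teneurins are large proteins that cross the membrane once and carry a broad extracellular part, with which they bind teneurins and latrophilins on a facing cell. Latrophilins are adhesion G protein-coupled receptors, named after the spider toxin that binds Adgrl1, and sit at synapses where they contact teneurins and FLRTs at the same time. FLRTs are membrane proteins with leucine-rich repeats that also bind Unc5 receptors and thereby act in the guidance of axons and migrating neurons. In the hippocampus these genes are known for the choice of synaptic partners, with Tenm3 and Adgrl2 marking connected groups of neurons and Adgrl3 acting at excitatory synapses.

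The 9 genes lie on 8 chromosomes of the rn6 build, as the count files give them. Among the teneurins, Tenm2 spans chr10:20844899-21265026 on the minus strand, Tenm3 chr16:46731403-46926245 on the plus strand and Tenm4 chr1:161401527-161880923 on the plus strand. Among the latrophilins, Adgrl1 spans chr19:25029037-25069142 on the plus strand, Adgrl2 chr2:258792839-258997145 on the minus strand and Adgrl3 chr14:28393394-28967980 on the minus strand. Flrt1 (chr1:222344713-222350173, minus strand) was counted on a single exon, Flrt2 (chr6:119519714-119609296, plus strand) on 2 and Flrt3 (chr3:134683065-134696654, minus strand) on 4, whereas the teneurins and latrophilins had 27 to 33 exon intervals. Reads were counted without regard to strand. Only Adgrl1 shares exonic bases with other genes, on the opposite strand, and these had at most 10 and 4 reads in any sample.

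The sequences upstream of the gene start are shown for Tenm2, Tenm3 and Adgrl2, the genes with the lowest unadjusted p in the comparisons of METH with saline described further on. They are the 250 bases before the start of the RefSeq gene in the build GRCr8, which differs from the build of the counts, written 5′ to 3′ along the gene. RefSeq upstream sequences were found for 8 of the 10 genes and not for Adgrl1 and Adgrl3. Capitals mark 4 promoter motifs searched on both strands, which are the cAMP response element TGACGTCA, the core of the TATA box (TATAA), the GC box motif (GGGCGG) and the CAAT box motif (CCAAT).
Tenm2 (GRCr8 chr10:22120941-22121190, minus strand): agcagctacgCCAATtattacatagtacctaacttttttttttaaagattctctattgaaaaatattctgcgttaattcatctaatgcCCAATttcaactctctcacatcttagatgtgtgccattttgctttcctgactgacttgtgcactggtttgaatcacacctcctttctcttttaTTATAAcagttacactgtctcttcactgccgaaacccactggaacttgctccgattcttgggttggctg
Tenm3 (GRCr8 chr16:50260539-50260788, plus strand): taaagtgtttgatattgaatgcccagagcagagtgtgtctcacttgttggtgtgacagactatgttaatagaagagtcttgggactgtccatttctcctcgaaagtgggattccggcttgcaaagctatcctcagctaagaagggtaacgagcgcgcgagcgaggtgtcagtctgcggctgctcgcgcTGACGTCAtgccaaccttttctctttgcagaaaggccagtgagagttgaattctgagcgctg
Adgrl2 (GRCr8 chr2:240495300-240495549, minus strand): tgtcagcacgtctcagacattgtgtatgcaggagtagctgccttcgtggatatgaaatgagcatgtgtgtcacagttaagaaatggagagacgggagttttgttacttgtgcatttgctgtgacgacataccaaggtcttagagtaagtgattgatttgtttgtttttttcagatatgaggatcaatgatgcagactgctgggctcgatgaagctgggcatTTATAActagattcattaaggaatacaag
The window of Tenm3 holds TGACGTCA 62 bases before the start, a word found in 1.7% of 27457 promoter windows of this length. The windows of Tenm2 and Adgrl2 hold TATAA, with overlapping copies on both strands, and 24.1% of windows hold this word. In Adgrl2 these copies begin 29 and 28 bases before the start. Tenm2 also has 2 copies of CCAAT on the strand shown, a word that 34.3% of windows hold at least once, and GGGCGG (32.4% of windows) is in none of these 3. The windows hold 12 CpG in Tenm3, 5 in Adgrl2 and 4 in Tenm2, and 17 in Tenm4, the highest of the 8, against a median of 6 over all windows. No measurement of these promoters was analysed here.

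Samples had 11094002 to 21869773 counted read pairs, and the members had 241 to 13731 reads in each sample, so none was near the limit of detection. Levels are given as CPM, the reads per 1000000 of the upper-quartile library size. The marker genes of several libraries stood apart from their region. The summed level of 9 genes of striatal medium spiny neurons, all 9 of them detected, was 1754 to 9274 CPM in 7 NAc samples but 287 in NAc METH 3, and 180 to 481 in 7 DG samples but 2059 in DG Sal 3. SVZ Sal 1, SVZ METH 2 and SVZ METH 4 had the highest sums of 6 thalamic genes (1110 to 1856 CPM, 81.4 to 486 in the other SVZ samples) and of 7 oligodendrocyte genes (19179 to 28008 CPM, 3979 to 9766 in the others). The summed level of the dentate granule neuron genes (7 of 8 in the files, with Tdo2 at 0 in DG Sal) did not separate the DG from the CA, with 154 to 691 CPM in the DG and 167 to 730 in the CA. The names of the libraries in the file headers hold library numbers. In the NAc and CA the same number went with the same treatment, but DG Sal 1 and 2 carry the numbers of METH samples of those regions and DG METH 1 and 2 carry those of saline samples. The 4 SVZ METH libraries carry only 2 numbers. Samples were grouped by their labels. Values without the libraries in question are given beside the main results of the members, but not by library for the related genes.

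Per kilobase of counted exon, Adgrl1 had the highest level of the group. Its mean over the 32 samples was 103 CPM per kb, above 97% of the 16122 genes with sufficient counts. Adgrl3 followed with 44.3 CPM per kb, then the teneurins with 32 for Tenm3, 27.6 for Tenm4 and 26.9 for Tenm2. Flrt2 (18.9 CPM per kb), Adgrl2 (16.2), Flrt3 (14) and Flrt1 (13.6) were the lowest, but even Flrt1 was above 64.5% of genes. The latrophilins thus held both the highest level and 1 of the lowest. The teneurins (26.9 to 32 CPM per kb) lay close together, as did the FLRTs (13.6 to 18.9).

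**Figure D1:**
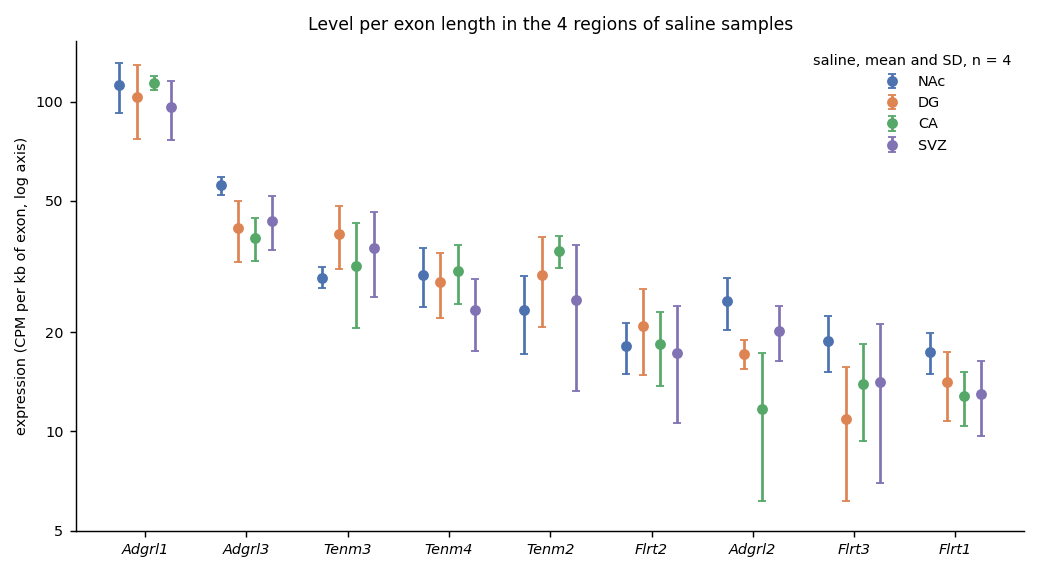
Level of the 9 genes per kilobase of counted exon (CPM per kb, log axis) in saline samples of the 4 regions, ordered by the mean over all 32 samples. Points are means and lines the SD of 4 samples. Adgrl1 stood near 100 CPM per kb in every region, and Adgrl2 had its highest mean in the NAc (24.8) and its lowest in the CA (11.7).

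Adgrl2 varied most over the 32 samples, from 14.8 to 175 CPM, with a standard deviation of 0.811 on the log2(CPM + 1) scale that exceeded that of 93.2% of genes. Flrt3 ranged from 12.7 to 87 CPM, with a standard deviation above that of 88.7% of genes. Tenm2 ranged from 108 to 458 CPM, above 85.3%. Adgrl1, with 352 to 782 CPM and a standard deviation of 0.309, and Adgrl3, with 170 to 365 CPM, were the most even. The lowest values of Adgrl2 were those of DG METH 1 (14.8), DG METH 3 (22.8), CA Sal 1 (23.3) and DG METH 4 (30), while the lowest values of Flrt3 were those of SVZ Sal 1 (12.7) and SVZ METH 2 (15.2).

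**Figure D2:**
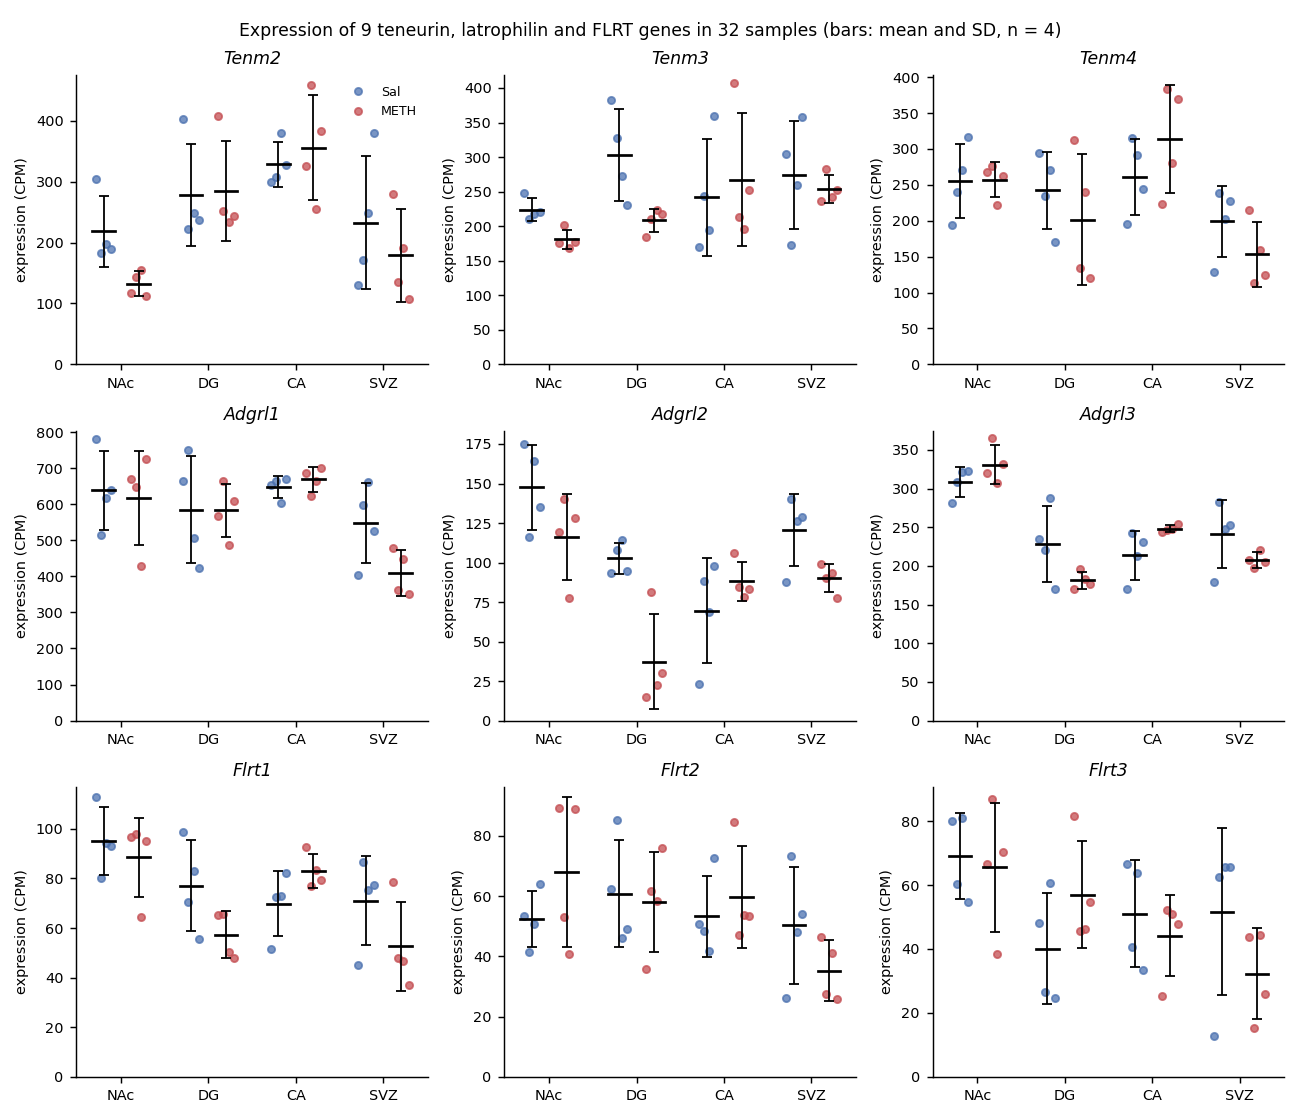
Expression (CPM, linear axes from 0) of each gene in every sample, by region and treatment. Points are the 4 samples of a group, in the order of their replicate numbers, and bars give the mean and SD. Tenm2 in the NAc, Tenm3 in the NAc and DG and Adgrl2 in the DG had METH samples that all lay below the saline samples, and Adgrl3 in the CA had METH samples that all lay above.

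Which regions express these genes most was asked in the 16 saline samples. Adgrl2 and Adgrl3 had their highest mean in the NAc, whereas Tenm2 had its highest mean in the CA and Tenm3 in the DG. The place of Tenm3 rests on DG Sal 1 and 2 (382 and 327 CPM), whose library numbers are in question, and without them its difference between the DG and SVZ went from 0.15 to -0.13. No member passed the threshold between any pair of regions, which asked for a fold change above 2 together with an FDR (the p adjusted by the Benjamini-Hochberg method over all genes) under 0.01. The following values therefore describe the regions.

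Adgrl2 was at 175, 116, 164 and 135 CPM in NAc Sal 1 to 4 and at 23.3, 88.3, 68.7 and 98 CPM in CA Sal 1 to 4. The lowest NAc sample lay above the highest CA sample. In the DG the saline samples had 93.3, 108, 114 and 94.9 CPM, and in the SVZ 87.9, 140, 126 and 129 CPM. The means followed the order NAc (148 ± 26.8 CPM, SD, n = 4), SVZ (121 ± 22.6), DG (103 ± 10.1) and CA (69.6 ± 33.2), and no neighbours in this order had an unadjusted p under 0.05. The difference between the NAc and CA was 1.08 on the log2 scale (SE 0.31, 95% interval 0.42 to 1.75), with an unadjusted p of 0.0036 in edgeR's quasi-likelihood test and an FDR of 0.059. Between the CA and SVZ it was -0.79 (SE 0.31, unadjusted p = 0.023 and FDR = 0.099 in edgeR). CA Sal 1 carried part of both values, which were 0.79 and -0.5 without it, and without SVZ Sal 2 the unadjusted p between the CA and SVZ was 0.055. The striatal medium spiny neuron sums stood at 1754 to 9274 CPM in NAc Sal and 187 to 409 CPM in CA Sal, and their part in this difference was not tested.

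Adgrl3 was at 281, 308, 321 and 323 CPM in NAc Sal 1 to 4, above 170, 242, 213 and 231 CPM in CA Sal 1 to 4. Again the groups did not overlap, as for Adgrl2. The share of all genes without overlap between the NAc and CA was not computed. At an unadjusted p under 0.05 in edgeR, 24.1% of all genes were counted between these regions. For Adgrl3, saline samples of the DG had 235, 220, 288 and 170 CPM, and those of the SVZ 179, 283, 248 and 253 CPM. The difference of the NAc from the CA was 0.53 (SE 0.17, unadjusted p = 0.007 and FDR = 0.078 in edgeR) and that from the DG was 0.43 (SE 0.17, unadjusted p = 0.022 and FDR = 0.38). The mean of the NAc was 308 ± 19.1 CPM, followed by the SVZ (241 ± 44.1), DG (228 ± 48.3) and CA (214 ± 32). DG Sal 3, the DG library with striatal marker genes, had the highest value of Adgrl3 among DG samples. When DG Sal 3 and SVZ Sal 1 were left out, the difference between the NAc and DG was 0.56 (FDR = 0.025) and that between the NAc and CA 0.53 (FDR = 0.016), below the fold of the threshold. Without DG Sal 1 and 2 the difference between the NAc and DG was 0.43 with an unadjusted p of 0.078, and without DG Sal 4 it was 0.31 (0.075).

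The other members overlapped between regions. Tenm2 had means of 328 ± 36.2 CPM in CA Sal, 278 ± 84 in DG Sal, 233 ± 109 in SVZ Sal and 218 ± 58.4 in NAc Sal, and the CA and NAc differed by 0.59 on the log2 scale with an unadjusted p of 0.061 in edgeR. Tenm3 was at 303 ± 66.4 CPM in DG Sal and 224 ± 16.5 in NAc Sal, the ends of its order. Tenm4 lay between 199 and 261 CPM in the 4 regional means and Adgrl1 between 547 and 647 CPM. Flrt1 had its highest mean in NAc Sal (95.1 ± 13.6 CPM) and Flrt3 did too (69 ± 13.4 CPM, against 40 ± 17.4 in DG Sal), while Flrt2 had 50.2 to 60.7 CPM. Of the 27 pairs of neighbouring regions in the orders of the 9 members, 0 had an unadjusted p under 0.05, and the lowest was 0.051 for Adgrl3 between the NAc and SVZ.

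At the threshold, 0 of 9 members were called in each of the 6 pairs, beside 0% of the 15515 genes tested in 4 pairs, 0.0193% between the DG and SVZ and 0.812% between the CA and SVZ. At an unadjusted p under 0.05, 1 of 9 members (Adgrl3) was counted between the NAc and DG, beside 11.5% of all genes. Between the NAc and CA, 2 of 9 (Adgrl2 and Adgrl3) were counted, beside 24.1%. Between the CA and SVZ it was 1 of 9 (Adgrl2), beside 31.6%. The pairs NAc and SVZ (12.6% of all genes), DG and CA (8.93%) and DG and SVZ (17.6%) had 0. The members' share was at or below that of all genes in every pair. DESeq2 called 0 of 9 members in every pair as well, with its lowest FDR at 0.017, for Adgrl2 between the NAc and CA.

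Unc5a, a netrin receptor that FLRTs also bind, was the only gene that passed the threshold in any pair among 4 lists of genes that bind or resemble the group. It was at 169, 158, 218 and 122 CPM in CA Sal 1 to 4 and at 13.3, 48, 31.4 and 33.1 CPM in SVZ Sal 1 to 4. The difference was 2.41 on the log2 scale (SE 0.44, FDR = 0.0089 in edgeR). The call was kept in 6 of 16 fits that left out a saline sample, with FDRs from 0.0036 to 0.031, and in 7 of 9 other alternatives. Its family member Unc5d was at 79 ± 28 CPM in CA Sal and 18.5 ± 2.98 in SVZ Sal (difference 2.09, FDR = 0.027). The list of FLRT partners (Unc5a, Unc5b, Unc5c, Unc5d, Robo1 and Fgfr1) had a median difference of 0.75 between the CA and SVZ, against -0.1 over all genes, while the members themselves had a median of -0.02.

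How METH affected the group was asked in each region with the 8 samples of that region. No member was called in any region with the fold change limit at 1.5 and the same FDR (0 of 9 in each), beside 0% of all genes in each. DESeq2 called 0 members and 3, 183, 10 and 2 of all genes in the NAc, DG, CA and SVZ. The differences below are thus descriptions with their errors and unadjusted p, of which Adgrl2 in the DG was the largest, followed among members with separate groups by Tenm2 in the NAc.

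**Figure D3:**
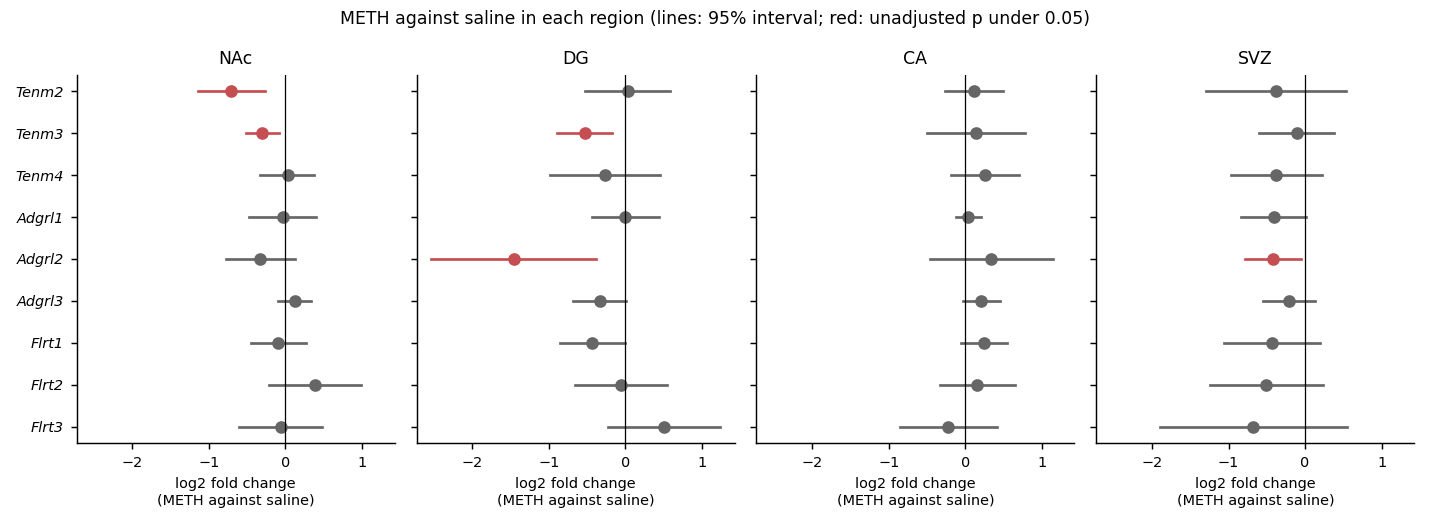
Log2 fold change of METH against saline for each gene in the 4 regions, with 95% intervals from edgeR's quasi-likelihood fit (n = 4 per group). Red marks an unadjusted p under 0.05, which was reached by Tenm2 and Tenm3 in the NAc, Tenm3 and Adgrl2 in the DG and Adgrl2 in the SVZ, and none of these passed the FDR threshold.

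In the NAc the teneurins Tenm2 and Tenm3 were lower in METH samples. Tenm2 was at 305, 182, 197 and 189 CPM in NAc Sal 1 to 4 and at 117, 144, 155 and 113 CPM in NAc METH 1 to 4. All METH samples lay below all saline samples, and NAc Sal 1 stood above the other saline samples. The mean went from 218 ± 58.4 CPM in saline to 132 ± 20.5 CPM in METH samples, a log2 fold change of -0.71 (SE 0.19, 95% interval -1.14 to -0.27). The unadjusted p was 0.0052 and the FDR 1 in edgeR. Without NAc Sal 1 the log2 fold change was -0.51, and without NAc METH 3, which lacked the striatal markers, it was -0.8. Tenm3 was at 248, 210, 217 and 221 CPM in saline and at 176, 201, 169 and 177 CPM in METH samples. Its groups were also separate, with a smaller difference of -0.3 (SE 0.094, unadjusted p = 0.012 and FDR = 1 in edgeR).

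Sequencing runs were inferred from a part of the library names in the file headers. No sample label calls these parts runs, so values by run rest on this reading. The only inferred run with both treatments of the NAc held 2 samples of each. Within it, Tenm2 had a mean of 131 CPM in METH and 193 CPM in saline samples, and Tenm3 had 188 and 219 CPM, with no overlap for either gene. Adgrl1 (659 and 629 CPM) and Flrt1 (97.2 and 93.6 CPM) did not overlap in this run either, with METH higher. Groups of 2 samples often separate by chance, and no share over all genes is given for this run. With the run as a covariate the log2 fold change of Tenm2 was -0.55 (unadjusted p = 0.092 in edgeR) and that of Tenm3 -0.21 (0.19). The third teneurin, Tenm4, had 255 ± 51.7 CPM in saline and 257 ± 24 CPM in METH samples. Over all NAc samples, the latrophilins Adgrl1 (log2 fold change -0.03, 95% interval -0.47 to 0.4), Adgrl2 (-0.33, -0.78 to 0.12) and Adgrl3 (0.12, -0.1 to 0.33) overlapped between groups. So did Flrt1 (-0.09), Flrt2 (0.39) and Flrt3 (-0.06). Of 9 members, 2 had an unadjusted p under 0.05, beside 3.39% of all genes, and the same 2 had groups without overlap, beside 2.26%. The striatal marker sum was 1754 to 9274 CPM in saline and 287 to 4055 CPM in METH samples, with all 9 markers lower in METH (median log2 fold change -0.61, none with p under 0.05), and 5 of 6 astrocyte markers were higher, 2 of them with p under 0.05. The astrocyte sums did not overlap, with 2557 to 2707 CPM in saline and 2944 to 4226 CPM in METH samples. The part of these markers in the differences of Tenm2 and Tenm3 was not tested.

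In the DG, Adgrl2 and Tenm3 were lower in METH samples. Adgrl2 was at 93.3, 108, 114 and 94.9 CPM in DG Sal 1 to 4 and at 14.8, 81.4, 22.8 and 30 CPM in DG METH 1 to 4. DG METH 2 lay close to saline, whereas the other METH samples were lower than every saline sample of any region other than CA Sal 1 (23.3 CPM), which lay between DG METH 3 and DG METH 4. The mean was 103 ± 10.1 CPM in saline and 37.3 ± 30.1 CPM in METH samples, with a log2 fold change of -1.46 (SE 0.47, 95% interval -2.54 to -0.38). In edgeR the unadjusted p was 0.014 and the FDR 0.27. The FDR was 0.048 in DESeq2 and 0.043 in 1 fit of all 32 samples, both above the threshold. Without DG METH 2 the log2 fold change was -2.18. Tenm3 was at 382, 327, 273 and 230 CPM in saline and at 185, 210, 223 and 217 CPM in METH samples. These groups were separated by a narrow gap, between DG Sal 4 and DG METH 3. The log2 fold change was -0.53 (SE 0.16, unadjusted p = 0.009 and FDR = 0.25 in edgeR).

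Since the library numbers of DG replicates 1 and 2 are those of the other treatment elsewhere, the DG was also compared with replicates 3 and 4 only (2 samples per group). Adgrl2 then had a log2 fold change of -1.99 (SE 0.22, unadjusted p = 0.00078 and FDR = 0.69 in edgeR), and Tenm3 had -0.19 (SE 0.16, unadjusted p = 0.29). For Tenm3 this is a change of over 1.5 times in the value. The samples of this fit include libraries whose markers stood apart. DG Sal 3, with the striatal markers, had a cortical glutamatergic sum of 82.9 CPM (1391 to 2110 in the other DG samples). Its interneuron sum was 1821 CPM (414 to 817 in the others). The choroid plexus sums were 2074 CPM in DG Sal 4 and 6188 CPM in DG METH 3. Without DG Sal 3 the values were -1.4 for Adgrl2 and -0.58 for Tenm3. In the run that held DG Sal 3 and DG METH 1 and 2, Adgrl2 was at 114 CPM in the saline sample and at a mean of 48.1 CPM in the METH samples, and with the run as a covariate its log2 fold change was -1.25 (unadjusted p = 0.16). The other runs of the DG held samples of 1 treatment only. If DG replicates 1 and 2 had exchanged labels, both genes would overlap between the groups. Adgrl2 would have 14.8, 81.4, 114 and 94.9 CPM in saline and 93.3, 108, 22.8 and 30 CPM in METH samples. Tenm3 would have 185, 210, 273 and 230 CPM in saline and 382, 327, 223 and 217 CPM in METH samples. No fit was made with exchanged labels.

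The remaining members overlapped between treatments in the DG. Flrt1 was at 98.8, 70.5, 83.1 and 55.7 CPM in saline and at 65.2, 65.8, 50.4 and 47.9 CPM in METH samples (log2 fold change -0.43, 95% interval -0.85 to 0, unadjusted p = 0.051 in edgeR). Adgrl3 had -0.33 (-0.68 to 0.01, unadjusted p = 0.058). Flrt3 was the only member with a positive value above 0.1, at 48.2, 26.6, 60.7 and 24.7 CPM in saline and at 81.5, 45.6, 46.3 and 54.6 CPM in METH samples (0.51, -0.23 to 1.24). The highest saline value was that of DG Sal 3, the library with striatal markers, and without it the log2 fold change was 0.78 (unadjusted p = 0.033 and FDR = 0.32 in edgeR). In the run that held DG Sal 3 and DG METH 1 and 2, Flrt3 had a mean of 63.5 CPM in METH samples against 60.7 CPM. With the run as a covariate its unadjusted p was 0.91 in edgeR, and the lowest log2 fold change under any alternative was 0.06. Tenm2 (0.03), Tenm4 (-0.27), Adgrl1 (0) and Flrt2 (-0.06) had intervals wide enough to hold changes in either direction. Of 9 members, 2 (Adgrl2 and Tenm3) had an unadjusted p under 0.05, beside 12.8% of all genes, and these 2 had groups without overlap, beside 7.39%.

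Marker genes also differed between the DG groups. The dentate granule neuron sum was 381, 158, 229 and 204 CPM in DG Sal 1 to 4 and 691, 529, 154 and 464 CPM in DG METH 1 to 4. The CA pyramidal neuron sum was 357 to 906 CPM in saline and 396 to 1405 CPM in METH samples, with Fibcd1 at 0 in both. DG METH 3, with a low Adgrl2, had the lowest granule sum of the DG, and DG METH 1, with the lowest Adgrl2, had the highest. All 6 astrocyte markers were higher in METH samples, with sums of 3446 to 3661 CPM against 2440 to 3014 CPM. The choroid plexus sum reached 2074 CPM in DG Sal 4 and 6188 CPM in DG METH 3, with 1.64 to 182 CPM in the other DG samples. All 9 striatal markers were lower in METH samples, by a median log2 fold change of -2.08 with none at an unadjusted p under 0.05, and the part of these sums in the difference of Adgrl2 was not tested.

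In the CA, 8 of the 9 members had log2 fold changes above 0, none with an unadjusted p under 0.05. The exception was Flrt3, with 51.1 ± 16.6 CPM in saline and 44.1 ± 12.6 CPM in METH samples (-0.22, 95% interval -0.85 to 0.41). Adgrl3 was at 170, 242, 213 and 231 CPM in CA Sal 1 to 4 and at 244, 246, 248 and 254 CPM in CA METH 1 to 4. The METH samples were nearly equal and all lay above the saline samples, and the log2 fold change was 0.21 (SE 0.11, 95% interval -0.03 to 0.45, unadjusted p = 0.082 in edgeR). Flrt1 had a mean of 69.9 ± 13.1 CPM in saline and 83 ± 6.94 CPM in METH samples (0.25, unadjusted p = 0.1). Tenm4 was at 195, 315, 291 and 244 CPM in saline and at 223, 383, 280 and 369 CPM in METH samples, which overlap (0.26, 95% interval -0.19 to 0.71). Adgrl2 had 23.3, 88.3, 68.7 and 98 CPM in saline and 106, 84.7, 78.4 and 83.4 CPM in METH samples, and its log2 fold change of 0.34 was 0.05 without CA Sal 1 (unadjusted p = 0.73). Without that sample Adgrl3 had 0.12 (0.17). Adgrl1 had the narrowest interval of the group, -0.12 to 0.21, around a log2 fold change of 0.04. Of 9 members, 0 had an unadjusted p under 0.05, beside 7.16% of all genes, and 1 (Adgrl3) had groups without overlap, beside 4.43%. The 2 runs that held both treatments of the CA had 2 METH samples and 1 saline sample each. In these runs the mean of Adgrl3 in METH samples was 251 against 213 CPM and 245 against 231 CPM. CA Sal 1 and CA Sal 2 carry the word merged in that part of the name and were treated as a run of their own. Whether they were sequenced together is not known. With the run as a covariate the unadjusted p of Adgrl3 was 0.3 in edgeR. In METH samples of the CA, 7 of the 9 striatal markers were higher (median 0.72) and 5 of the 6 granule neuron markers tested were lower (median -0.71). All 7 oligodendrocyte markers were lower (median -0.29), as were 5 of 6 pan-neuronal markers (median -0.17) and all 4 choroid plexus markers tested (median -2.46). All 6 astrocyte markers (median 0.15) and all 3 endothelial markers tested (median 0.39) were higher. The part of these markers in the values of the members was not tested.

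In the SVZ all 9 members had negative log2 fold changes, with a median of -0.41 against 0.02 over all genes, of which 47.1% were negative. Adgrl2 was at 87.9, 140, 126 and 129 CPM in SVZ Sal 1 to 4 and at 98.8, 90.1, 93.1 and 77.8 CPM in SVZ METH 1 to 4. Only SVZ Sal 1 reached into the range of METH samples. The log2 fold change was -0.42 (SE 0.16, 95% interval -0.78 to -0.05), with an unadjusted p of 0.029 and an FDR of 0.98 in edgeR. Adgrl1 was at 403, 598, 661 and 527 CPM in saline and at 479, 361, 447 and 352 CPM in METH samples (-0.41, SE 0.19, unadjusted p = 0.057). Flrt3 was at 12.7, 62.6, 65.8 and 65.8 CPM in saline and at 43.7, 15.2, 44.3 and 25.9 CPM in METH samples (-0.68, 95% interval -1.9 to 0.55). Tenm2 and Tenm4 had -0.38 each, Tenm3 -0.11, Adgrl3 -0.21, Flrt1 -0.43 and Flrt2 -0.51, all with intervals that include 0. Of 9 members, 1 (Adgrl2) had an unadjusted p under 0.05, beside 2.58% of all genes, and 0 had groups without overlap, beside 1.6%.

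The SVZ values moved with the marker genes of the pieces. SVZ Sal 1, SVZ METH 2 and SVZ METH 4, the samples high in thalamic and oligodendrocyte genes, were the 3 lowest SVZ samples for Tenm2, Tenm4, Adgrl1, Adgrl2, Adgrl3, Flrt2 and Flrt3. All 7 oligodendrocyte markers were higher in METH samples (median log2 fold change 0.83) and all 9 striatal markers were lower (median -1.25), none with an unadjusted p under 0.05. All 5 ependymal markers tested were lower (median -0.57, 1 with p under 0.05) and all 5 choroid plexus markers tested were higher (median 3), with a choroid plexus sum of 8293 CPM in SVZ METH 3 and 7.56 to 386 CPM in the other SVZ samples. The part of these markers in the SVZ values was not tested. Without SVZ Sal 1, SVZ METH 2 and SVZ METH 4, Adgrl2 had a log2 fold change of -0.45 (SE 0.12, unadjusted p = 0.0078), Flrt3 -0.56 (SE 0.11, unadjusted p = 0.0022, FDR = 0.62 in edgeR) and Tenm2 -0.18. With the METH libraries of the same number summed, which leaves 2, the value of Adgrl2 was -0.44 (SE 0.21, unadjusted p = 0.076). The header names of the SVZ libraries do not tell runs apart, so no value by run is given for the SVZ.

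Whether METH and saline samples differed by the same amount in the DG and CA, the neighbouring parts of the hippocampus, was tested in the 16 samples of both regions. For 8 of 9 members the effect in the DG was more negative than in the CA, with a median difference of -0.54 against -0.03 over all genes. Adgrl2 had -1.46 in the DG and 0.34 in the CA (0.05 without CA Sal 1), and the difference was -1.81 (SE 0.64, 95% interval -3.17 to -0.45, unadjusted p = 0.012 and FDR = 0.21 in edgeR). Adgrl3 had -0.33 and 0.21 (difference -0.55, SE 0.19, unadjusted p = 0.011 and FDR = 0.2), and Flrt1 had -0.43 and 0.25 (difference -0.68, SE 0.24, unadjusted p = 0.014 and FDR = 0.22). Tenm4 had -0.27 and 0.26, with a difference of -0.54 whose interval ran from -1.4 to 0.32. Flrt3 alone had the reverse order, 0.51 in the DG and -0.22 in the CA (difference 0.71, 95% interval -0.27 to 1.7). No difference passed the threshold, and 0% of all genes did. At an unadjusted p under 0.05 there were 3 of 9 members, beside 15.4% of all genes.

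**Figure D4:**
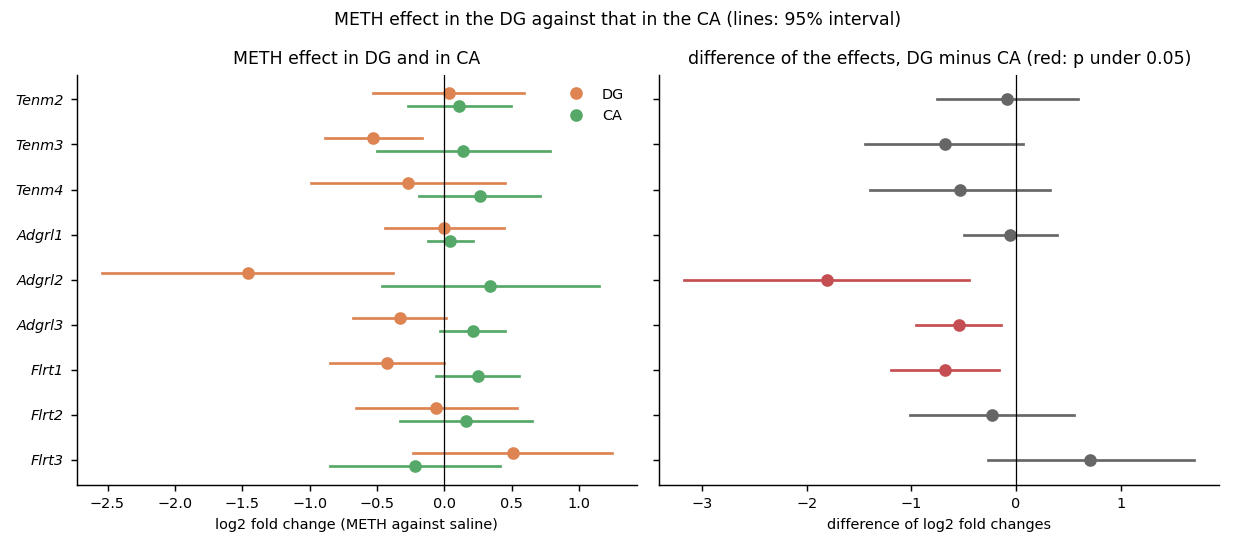
Left, log2 fold change of METH against saline in the DG and CA with 95% intervals. Right, the difference of both effects (DG minus CA) from 1 fit of 16 samples. Adgrl2, Adgrl3 and Flrt1, in red, had an unadjusted p under 0.05, and their intervals lie below 0.

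Tenm3 had -0.53 in the DG and 0.14 in the CA (difference -0.68, unadjusted p = 0.072), and with DG replicates 3 and 4 only the difference was -0.34. With the run as a covariate the value of Tenm3 in the CA was -0.01. For Tenm4, which also had opposite signs, the samples spread widely. DG Sal 1 to 4 had 294, 235, 271 and 171 CPM and DG METH 1 to 4 had 312, 134, 240 and 120 CPM. DG METH 2 and 4 lay below every DG saline sample, but DG METH 1 was the highest of the region. With DG replicates 3 and 4 only, the difference of the effects was -0.56 for Tenm4 (unadjusted p = 0.24), -2.33 for Adgrl2 (0.0026), -0.57 for Adgrl3 (0.057) and -0.75 for Flrt1 (0.018). Without DG Sal 3 it was -1.75 for Adgrl2, -0.42 for Adgrl3 and -0.64 for Flrt1. The saline samples of a region enter both its own effect and this difference, so these values are not independent of those above.

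In all 32 samples, with region as a term, METH against saline gave a negative log2 fold change for all 9 members (median -0.12, against 0.01 over all genes). Adgrl2 had -0.47 (SE 0.21, 95% interval -0.9 to -0.04), with an unadjusted p of 0.035 and an FDR of 0.63 in edgeR. It was lower in METH samples by the mean in the NAc, DG and SVZ but not in the CA. With DG replicates 3 and 4 only, the value was -0.39 (unadjusted p = 0.062), and without the 5 libraries whose markers stood apart it was -0.4 (0.1). Tenm3 had -0.2 (95% interval -0.44 to 0.03) and Tenm2 -0.24 (-0.55 to 0.07). Adgrl3 (-0.06, -0.21 to 0.09) and Adgrl1 (-0.11, -0.29 to 0.08) had the narrowest intervals. At an unadjusted p under 0.05 there was 1 of 9 members, beside 7.45% of all genes, and 0 of 9 passed the threshold, beside 0%. The library numbers recur between the NAc, DG and CA, so samples of these regions may share animals. The main fits over several regions have no term for the animal and treat all samples as independent.

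Genes related to the group in function also had 0 calls for METH in each region and in the interaction. In the DG all 6 FLRT partners had positive log2 fold changes (median 0.64, against -0.01 over all genes), opposite in sign to 7 of the 9 members. Fgfr1, a growth factor receptor that FLRTs bind, was at 139, 81.7, 100 and 91.5 CPM in DG Sal 1 to 4 and at 184, 140, 223 and 260 CPM in DG METH 1 to 4. Its groups did not overlap, and the log2 fold change was 0.97 (SE 0.23, unadjusted p = 0.0024 and FDR = 0.18 in edgeR). If DG replicates 1 and 2 had exchanged labels, the groups of Fgfr1 would overlap. CA Sal 1, the CA sample with the low Adgrl2, had the highest Fgfr1 of its region (245 CPM). Among 10 leucine-rich repeat synaptic organisers tested, 7 had positive and 3 negative log2 fold changes in the DG (median 0.04). At an unadjusted p under 0.05 in edgeR, 2 of them were lower and 1 was higher. Lrrtm3, which acts at excitatory synapses, had 76.5 ± 11.2 CPM in DG Sal and 38.2 ± 9.56 CPM in DG METH (log2 fold change -1, SE 0.19, unadjusted p = 0.00066 and FDR = 0.16). Lrrc4c, a netrin-G ligand, had -0.75 in the DG (FDR = 0.22) and -0.46 in the NAc (FDR = 1), where Lrrtm4 had -0.41 (FDR = 1). The neurexins and neuroligins had medians of -0.03, -0.13, 0.07 and -0.2 in the NAc, DG, CA and SVZ, and Nrxn2 in the CA (0.32, unadjusted p = 0.031) was their only gene with p under 0.05. The other adhesion receptors (4 of 6 in the files) had medians of -0.18, 0.01, 0.06 and -0.37 and 0 genes with p under 0.05.

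The highest Pearson correlations of log2(CPM + 1) over the 32 samples among the 36 pairs of members were those of Adgrl1 with Flrt2 (0.75) and Flrt1 (0.71), of Adgrl3 with Flrt1 (0.74) and of Adgrl3 with Adgrl2 (0.7), and the median was 0.33. Tenm3 had 0.3 at most (Tenm2) and -0.49 with Flrt3. After the mean of each group was removed, Adgrl1 and Flrt2 still had 0.71, Adgrl3 and Flrt1 0.6 and Tenm3 and Flrt3 -0.37. These samples share region, treatment and run, so the values are descriptions. With the summed marker genes, Adgrl1 had -0.84 with thalamic neurons and -0.68 with oligodendrocytes, and Tenm4 had -0.74 with oligodendrocytes. Adgrl2 and Adgrl3 had 0.62 and 0.65 with striatal medium spiny neurons. After group means were removed, these values were, in the same order, -0.72, -0.51, -0.67, 0.33 and 0.56.

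**Figure D5:**
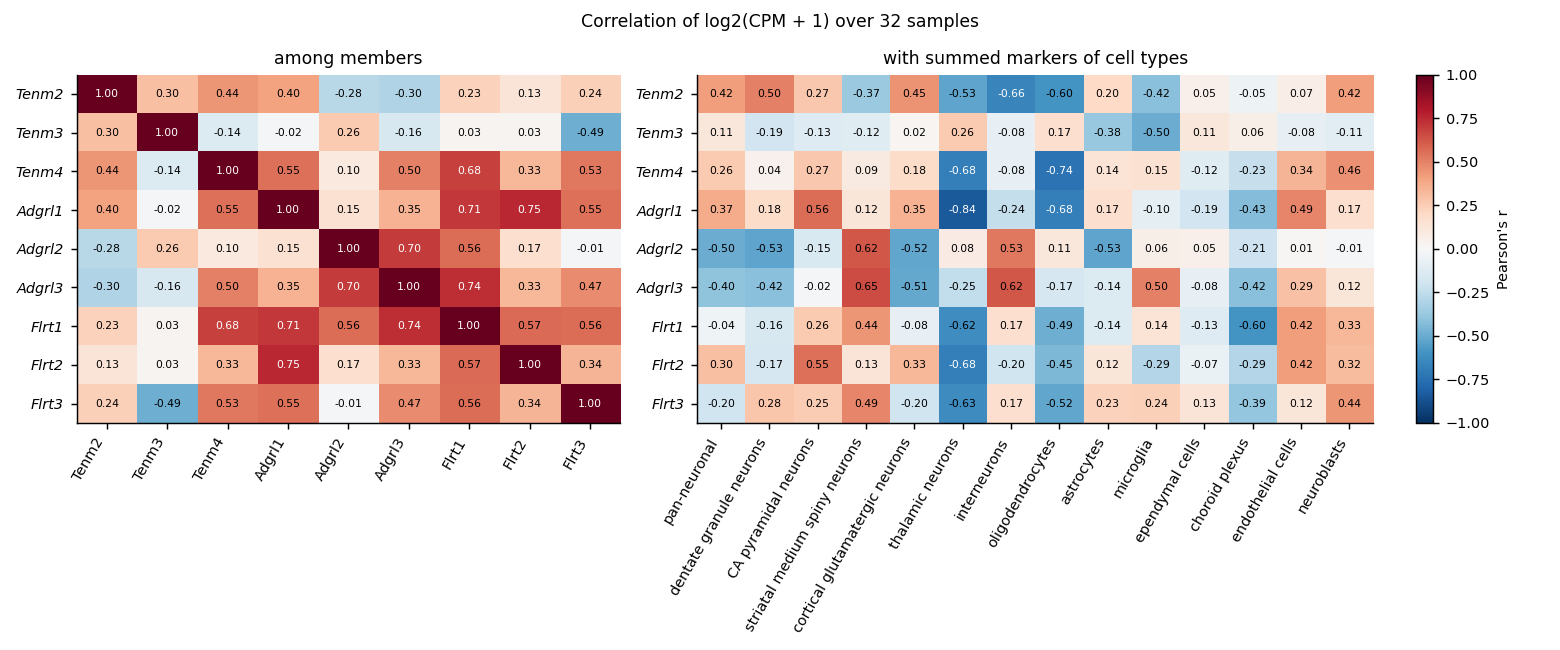
Pearson's r of log2(CPM + 1) over 32 samples among the 9 genes (left) and between them and the logarithm of the summed level of each marker list (right), on a scale from -1 (blue) to 1 (red). Tenm3 had no value above 0.3 with another member, and thalamic markers had negative values with 7 of the 9 genes.

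Over the same samples the genes most like each member, out of 16121 others, were named by the highest r. Adgrl1 was nearest to Dlg4 (0.94), the main scaffold of excitatory synapses, Ankrd34a (0.93) and Map3k10 (0.93). Adgrl2 was nearest to the potassium channel gene Kcnt1 (0.86), Pla2g4e (0.84) and Slc35f1 (0.84), and Adgrl3 to Mdga2 (0.91), Asic1 (0.91) and Pcdh10 (0.9). Tenm4 was nearest to Negr1 (0.85), Ubqln2 (0.83) and Nlgn2 (0.83), and Tenm2 to Dgkg (0.83), Kcng1 (0.82) and Nol4 (0.81). For Tenm3 the values were the lowest of the group, 0.79 with Far2, 0.73 with the early response gene Dusp1 and 0.69 with Cyth2. Flrt1 was nearest to Fbxo42 (0.92), Dusp8 (0.88) and Lrrtm3 (0.88), and Flrt2 to Dclk1 (0.86), Gpr26 (0.84) and Rasl11b (0.83). Flrt3 had the highest value of any member, 0.97 with Dcc, a netrin receptor, followed by Erlin1 (0.93) and Necab2 (0.92), and its value with Dcc was also 0.97 after group means were removed.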

How the data were processed

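RNA was extracted from the NAc, DG, CA and SVZ of METH- and saline-treated rats, depleted of ribosomal RNA and sequenced in read pairs. Per the labels and methods, the authors trimmed reads with cutadapt 2.7, checked them with FastQC 0.11.4 and mapped them to rn6 with STAR 2.5.2b. The deposited files hold raw counts of read pairs per gene, made per the file headers by featureCounts 1.6.3 without regard to strand, at a mapping quality of at least 10 and with Ensembl release 95, while the methods name a UCSC annotation. A deposited count matrix of the series holds 14712 genes, and 14.43% of its values equal those of the files per sample. It served as an alternative. Columns of values that matched no sample numbered 0.

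Counts were scaled by the upper quartile, filtered with filterByExpr and fitted with edgeR 4.0.16 (quasi-likelihood test, Benjamini-Hochberg adjustment over all genes tested) in R 4.3.3. Each region was fitted alone for METH against saline, the 16 saline samples together for pairs of regions, the 16 DG and CA samples together for the difference of their METH effects, and all 32 with region as a term. Genes were called at an FDR under 0.01 and a fold above 1.5, or above 2 between regions. The methods of the study also remove RUVr factors, in a number not stated, so 2 factors were an alternative. The others were TMM, DESeq2 1.42.0, 2 filters on low counts, the sequencing run, as read from the header names, as a covariate where treatment could then be estimated, 1 fit of all samples, a contrast of each region with the other 3 averaged, an FDR of 0.05, the replicate number as a block and leaving out each sample. Leaving out libraries by their header numbers or markers, and summing SVZ libraries of 1 number, were chosen after seeing the data. Fits were tested on simulated data.

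All members were named. Of each related list, up to 2 genes per comparison with the lowest unadjusted p under 0.05 were named, and of the genes most like a member, 3. Members and lists were chosen with earlier results of these data known. No label names separate animals for the replicates, so p-values measure the spread between these samples, which may be in part technical. Total counts were 11094002 to 21869773 per sample. Samples of 1 group differed by more than sampling noise in all 48 pairs. Same-numbered METH and saline samples did not deviate together in any region (every pair above 0.1 was required), but NAc and CA saline samples did (correlations of 0.12 to 0.24 in 4 of 4 pairs) and carry the same header numbers.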

Additional observations from a re-analysis of the deposited data

Results flagged for a closer look

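In 6 of the 72 groups of 4 samples formed by the 9 genes, 1 sample stood apart by Dixon's ratio, the gap to the nearest sample over the range of the group. The 95% critical value of this ratio is passed by chance in about 1 of 20 groups. Tenm2 accounts for 3 of the 6. It was at 305 CPM in NAc Sal 1, with the next sample at 197 (ratio 0.879), at 403 CPM in DG Sal 1, with the next at 248 (0.863), and at 407 CPM in DG METH 1, with the next at 251 (0.898). Flrt1 was at 64.5 CPM in NAc METH 3, the NAc library with low striatal markers, with the next sample at 95.1 (0.919). Flrt3 was at 25.4 CPM in CA METH 1, with the next at 47.9 (0.84). It was at 12.7 CPM in SVZ Sal 1, the saline library high in thalamic genes, with the next at 62.6 (0.939).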

How the results depend on the processing

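No member was called in any of the 4 comparisons under any alternative (45 for METH within regions, 27 for pairs of regions, 25 for the DG against the CA and 42 for all samples), and the number of members called was 0 to 0 over the fits that left out 1 sample. Of 2583 log2 fold changes of members under alternatives, 2462 kept their sign and 121 did not. A change of sign was counted as a reversal only at an unadjusted p under 0.05 in either fit, and there were 0. With 2 RUVr factors, Adgrl2 had -1.54 in the DG (FDR = 0.17 in edgeR) and -1.89 for the DG against the CA (FDR = 0.13).

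With the replicate block, 0 members were called, Adgrl2 had -1.77 in the DG (unadjusted p = 0.0042) and -2.19 for the DG against the CA (0.0037), and Tenm2 had -0.68 in the NAc (0.016). The block moved the genes called between the CA and SVZ from 126 to 0, and Unc5a was then not called. Other counts of all genes moved too. Between the CA and SVZ they were 766 with DESeq2, 719 with RUVr factors, 44 without a filter, 256 without DG Sal 1 and 2 and 708 without DG Sal 3 and SVZ Sal 1. Between the NAc and CA they were 0, against 529, 447 and 469 with DESeq2, RUVr factors and without DG Sal 3 and SVZ Sal 1, and 13 without DG Sal 1 and 2. Between the NAc and DG they were 0, against 11 with DESeq2 and 200 without DG Sal 3 and SVZ Sal 1. Between the DG and SVZ they were 3, against 117 and 390. Between the NAc and SVZ they were 0, against 44 with DESeq2. The cause was not tested.

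Adgrl2 in the SVZ kept an unadjusted p under 0.05 in 3 of 8 fits without 1 sample (log2 fold change -0.55 to -0.34), Adgrl2 in the DG in 8 of 8 (-2.18 to -1.2) and Tenm2 in the NAc in 8 of 8 (-0.8 to -0.51). With 4 samples per group, the spread between samples sets the width of each interval. For METH against saline within a region, the interval was widest for Flrt3 in the SVZ (-1.9 to 0.55).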
